A study of Mus musculus with 43 samples.

Results

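The comparison described here sets whole lungs of mice that inhaled house dust mite extract (HDM) for 19 weeks and were treated with an antibody against IL-33 (itepekimab) plus an isotype antibody against lungs of mice given saline. It asks which parts of the response to mite are still present when IL-33 is blocked. Per their labels the saline mice received no antibody, and the labels do not say how long saline was given. Differences from saline therefore combine mite exposure with antibody treatment. Libraries were chosen by their labels and matched to the table by library number, which gave 6 anti-IL-33 libraries (numbered 2 to 7) and 5 saline libraries (numbered 1 to 5), together 11 of the 43 libraries of the series. A further 7 libraries of mice exposed to HDM for 19 weeks and given the isotype control antibody serve as the treated reference. The mice were female, 8 to 12 weeks old, of a hybrid background of 129S6 and C57BL/6, and HDM was given through the nose 3 times a week. In the mice used to assess antibodies the ectodomain of IL-4Rα, IL-4 and IL-33 had been exchanged for the human sequences; whether the saline mice carried these alleles is not stated. Antibody was begun on day -3, in week 4 or in week 11 according to the design text, and which of these applied to this group is not in the labels. Nothing in the labels says whether the libraries of a group came from separate litters or cages, so the p-values measure the spread between libraries. In the gene tests this spread was estimated over all 43 libraries in 1 model, unless stated otherwise.

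IL-33 is an alarmin stored in the nucleus of barrier cells and released on damage. It acts through the receptor ST2, encoded by Il1rl1, on group 2 innate lymphoid cells, mast cells, basophils and T helper 2 cells, which then secrete IL-5 and IL-13. IL-13 signals through a receptor that contains IL-4Rα to STAT6, and in the lung this axis is known for goblet cell metaplasia with mucus, alternative activation of macrophages and recruitment of eosinophils by eotaxins.

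Before the results, 2 properties of these libraries need stating. The first is a tilt with GC content. For each library the log2 expression of each gene relative to the mean of all 43 libraries was regressed on the GC content of its transcript, which gives a GC slope in log2 units per standard deviation of GC (6.24 percentage points). The slopes of the saline libraries were -0.502, -0.398, -0.207, -0.389 and -0.353, those of the anti-IL-33 libraries ran from -0.215 to 0.737, and those of the isotype libraries from -0.267 to 0.22. The difference between anti-IL-33 and saline was 0.531 (exact permutation test, 2-sided, p = 0.0152, n = 6 and 5; the smallest p this design allows is 0.00216). Anti-IL-33 replicates 4 and 5 had slopes of 0.511 and 0.737 and are called the steep libraries, being above a limit of 0.4 chosen after the slopes were seen. Counts of list members below are therefore given also from a fit with the GC slope as covariate, and from a fit without all steep libraries of the series, with a fit without the steep anti-IL-33 libraries alone for some lists and genes. Since saline has the lowest mean slope of the 3 groups (-0.37, against -0.0793 for isotype and 0.161 for anti-IL-33), slope and group cannot be fully told apart.

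The second property concerns saline replicate 3, in which genes of other tissues were high. The summed level of 9 squamous epithelium genes was 13400 CPM (counts scaled by TMM-adjusted library size) in that library and at most 6.91 CPM in the other saline libraries. Summed adipose genes stood at 1260 CPM against at most 74.2, and 7 heart and skeletal muscle genes at 1240 CPM against at most 265. In anti-IL-33 the same lists reached 10.4, 85.0 and 171 CPM. Results that rest on this library are given with and without it. Mitochondrially encoded genes summed to 27100 to 42200 CPM in saline and 17500 to 164000 CPM with anti-IL-33, where steep replicate 4 was highest and the next library was at 73000 CPM. The part of this in the results was not tested. Total counts, to the nearest 1000, ran from 14043000 to 23281000 in saline and from 14173000 to 24341000 with anti-IL-33. The lung markers Sftpc (surfactant protein C, at least 6740 CPM) and Scgb1a1 (club cell secretory protein, at least 1440 CPM) were abundant in all 43 libraries.

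**Figure D1:**
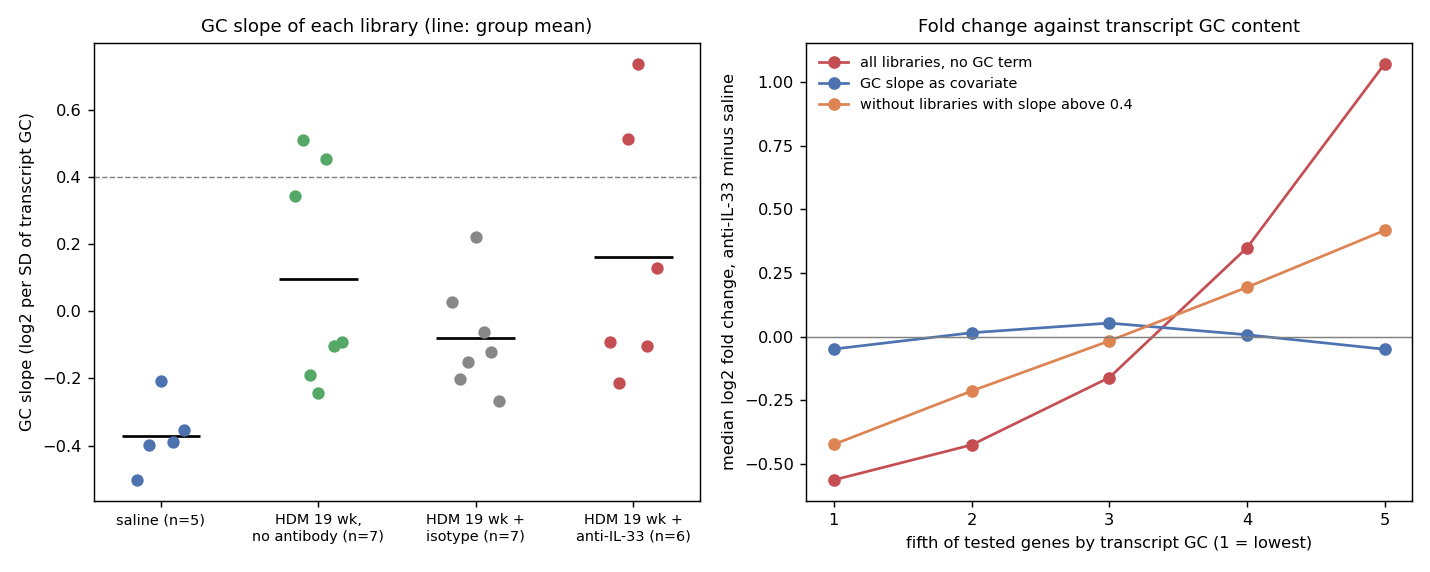
Left, the GC slope of each library (log2 per standard deviation of transcript GC) for saline, HDM for 19 weeks without antibody, isotype and anti-IL-33, with the group mean as a line and the limit of 0.4 dashed. Right, the median log2 fold change of anti-IL-33 minus saline in 5 equal groups of tested genes by transcript GC, which climbs from -0.564 to 1.07 without a GC term and stays within -0.05 and 0.053 with the GC slope as covariate; the line without libraries above the limit runs from -0.424 to 0.418.

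Across all 15979 genes tested, 4026 were higher with anti-IL-33 than in saline (25.2% of genes tested) and 2853 lower (17.9%), at an adjusted p under 0.05 in edgeR's quasi-likelihood test. Fold changes below, and the amounts by which genes rose, are on the log2 scale with their SE, and a negative value is a lower level. With the GC slope as covariate 1840 were higher (11.5%) and 1759 lower (11.0%), and without the steep libraries 3077 (18.7%) and 3318 (20.2%). Leaving out only the steep anti-IL-33 libraries left 1345 higher (8.36%) and 969 lower (6.02%). Both fits without steep libraries compared the same anti-IL-33 and saline libraries. They differed in the libraries of other groups, which enter the filter and the estimate of the spread. With offsets for GC and transcript length the counts were 3146 (19.9%) and 2822 (17.8%). Without saline replicate 3 they were 4042 (25.2%) and 2635 (16.4%). A fit of only the 2 groups compared called 3188 higher and 2008 lower of 15246 genes tested. Its smallest adjusted p was 8.98e-06, against 1.67e-15 with all 43 libraries in the model. In the GC-richest of 5 equal groups of genes 1763 were higher and 69 lower without a GC term, and 329 and 425 with it. Of the 4026 genes that were higher, 1387 also passed in the same direction with the GC covariate. Of the 2853 that were lower, 1126 did, and none of either passed in the opposite direction there. With GC and length offsets 7 of the higher genes passed in the opposite direction, and none of the lower genes.

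Isotype-treated mice differed from the same saline libraries by 2073 genes that were higher (13.0%) and 1977 that were lower (12.4%). With the GC slope as covariate isotype had 3040 higher and 2913 lower, against 1840 and 1759 for anti-IL-33. Without the steep libraries isotype had 4028 and 4332, against 3077 and 3318 for anti-IL-33. No saline or isotype library was steep, so for isotype this fit compared the same libraries as the first fit. Only libraries of other groups were left out, which changed the filter and the estimate of the spread. Which group had more genes called thus depended on the setting. Isotype counts and fold changes below are from the fit without a GC term unless stated otherwise. Since both comparisons use the saline libraries, their values are given side by side and not correlated. Tested directly, anti-IL-33 and isotype differed in no gene in edgeR (0% of 15979 called, smallest adjusted p 0.246). There, 2243 genes had an unadjusted p under 0.05 with a higher and 635 with a lower level under anti-IL-33. Together these were 2878 genes, against 1439 with the GC slope as covariate. Without the steep libraries 956 of 16414 genes had such a p, and without the steep anti-IL-33 libraries alone 407 of 16095. DESeq2 called 8 genes higher and 0 lower, limma voom with sample weights 478 and 534, and edgeR without anti-IL-33 replicate 7 called 86 and 51. A difference that missed the threshold is not shown to be absent, so the differences are given with their SE.

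Part of the type 2 cytokine and receptor genes remained above saline. Of 14 tested members of this list, 6 were higher and 1 lower than in saline, beside 25.2% and 17.9% over all genes. The counts were 7 and 0 with the GC covariate (11.5% and 11.0% over all genes) and 7 and 1 without the steep libraries (18.7% and 20.2%). Without the steep anti-IL-33 libraries alone they were 5 and 1 (8.36% and 6.02%). With isotype 5 were higher and 1 lower (9 and 1 with the GC covariate, 8 and 1 without the steep libraries). Il13 (Gene ID 16163, chr11:53631323-53634702 in GRCm38), the effector cytokine of mucus and macrophage responses, was at 0, 0, 0.0345, 0.0389 and 0 CPM in saline replicates 1 to 5. With anti-IL-33 it was at 0.417 to 2.83 CPM, with a median of 1.48, and with isotype at 0.729 to 4.03 CPM, with a median of 1.59. All 6 anti-IL-33 libraries lay above all saline libraries and within or below the isotype range; the lowest were the steep replicates 4 and 5. Summed counts were 171 against 2, a ratio of 103 (95% counting interval 28.0 to 854), and the adjusted p was 3.71e-07. The direct difference from isotype was -0.42 ± 0.47 on the log2 scale (± SE throughout, adjusted p 0.552).

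Il5, the eosinophil growth factor, ran from 0 to 0.88 CPM under anti-IL-33 and 0 to 0.242 CPM in saline, and the groups overlapped (log2 fold change 1.54 ± 0.88, adjusted p 0.148). Il4 had 0 counts in all 11 libraries; since the antibody-treated mice carry a human IL-4 sequence in place of the mouse one, this says nothing about the cytokine. Il33 was exchanged as well and was at 9.98 to 13.7 CPM in saline and 4.07 to 18.4 CPM with anti-IL-33. Its fold change of -0.03 became 0.99 with the GC covariate (adjusted p 0.00017). Il1rl1, the IL-33 receptor, was at 5.38, 6.11, 5.98, 4.39 and 4.03 CPM in saline and at 1.77 to 25.3 CPM, with a median of 15.6, with anti-IL-33, against 17.9 to 30.6 CPM, with a median of 25.4, with isotype. Replicates 4 and 5 were below every saline library and the other 4 were above all of them. The fold change was 1.40 ± 0.54 (adjusted p 0.0351), 2.25 ± 0.40 with the GC covariate and 1.90 ± 0.28 without the steep libraries. The call was lost with only the 2 groups compared (adjusted p 0.0775) and with a replicate block (1.05, adjusted p 0.157). It was also lost without any 1 of saline replicates 1, 2, 4 and 5 or of anti-IL-33 replicates 2, 6 and 7 (adjusted p 0.0528 to 0.0883). The decoy receptor Il13ra2, which binds IL-13 without signalling through STAT6, rose by 4.10 ± 0.84 (adjusted p 0.00035) and by 4.73 with isotype. Csf2rb, the signalling chain shared by IL-3, IL-5 and GM-CSF, rose from 35.6 to 75 CPM to 149 to 499 CPM (2.65 ± 0.29, adjusted p 8.37e-09). Il4ra was at 86 to 114 CPM in saline and 132 to 806 CPM with anti-IL-33, with the highest values in the steep replicates 4 and 5. Its fold change of 1.76 ± 0.45 (adjusted p 0.00322) became 0.35 with the GC covariate (adjusted p 0.262). The call was also lost without the steep anti-IL-33 libraries (0.89, adjusted p 0.154). Since the ectodomain of IL-4Rα was exchanged in the antibody-treated mice, the Il4ra counts may not be comparable between the groups, which was not tested. Tslp, an alarmin of epithelium, was the member that was lower, at -1.22 ± 0.37 (adjusted p 0.00903), and at -1.06 ± 0.40 with the GC covariate, just missing the threshold of 0.05 (adjusted p 0.0524).

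Mucus genes remained high throughout. All 16 members of the goblet cell list were higher than in saline with every anti-IL-33 library above every saline library (12.3% of all genes tested were above in this way). The count was 16 of 16 also with the GC covariate, with GC and length offsets, without the steep libraries and without saline replicate 3. The median log2 fold change of the list was 4.73, against 0.0024 over all genes, and 3.63 with isotype. Clca1 (Gene ID 23844, chr3:145004537-145032776), a secreted goblet cell protein, was at 2.83, 0.165, 0.138, 0.583 and 0 CPM in saline. Under anti-IL-33 it was at 36.6 to 1750 CPM, with a median of 526, and with isotype at 11 to 688 CPM, with a median of 61.2. The spread within the treated groups was wide: anti-IL-33 replicate 2 was at 1750 CPM, while replicates 5 and 7 were at 36.6 and 48.5. Its fold change was 9.73 ± 1.40 (adjusted p 2.08e-06), and the difference from isotype was 2.07 ± 0.86 (adjusted p 0.264).

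Muc5ac, the inducible gel-forming mucin, was at 1.63, 1.21, 0.587, 1.28 and 0.726 CPM in saline and at 9.06 to 37.9 CPM, with a median of 16.9, with anti-IL-33. It rose by 4.27 ± 0.57 (adjusted p 4.5e-07) and by 3.16 with isotype. Muc5b, the constitutive airway mucin, rose by 3.47 ± 0.52 and by 2.51, in the same order. Fcgbp, a mucus-linked IgG Fc binding protein, rose by 5.19 ± 0.73 against 3.66, and Agr2, an isomerase needed to fold mucins, by 4.76 ± 0.67 against 3.10. The transcription factors of goblet cells Spdef and Foxa3 rose by 2.68 ± 0.56 and 4.15 ± 0.66. Slc26a4, the anion exchanger pendrin, rose from 3.77 to 14.7 CPM to 90.9 to 458 CPM (5.06 ± 0.52, adjusted p 2.42e-09). Tff1, a trefoil peptide, had 0 counts in saline and 102 in anti-IL-33, at least 40.8-fold higher against a floor of 3 counts over the group. Direct differences from isotype were 1.65 ± 0.50 for Agr2 and 1.53 ± 0.54 for Fcgbp (adjusted p 0.246 and 0.246). Without anti-IL-33 replicate 7, which had the lowest level of both, the adjusted p of Agr2 was 0.0479.

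**Figure D2:**
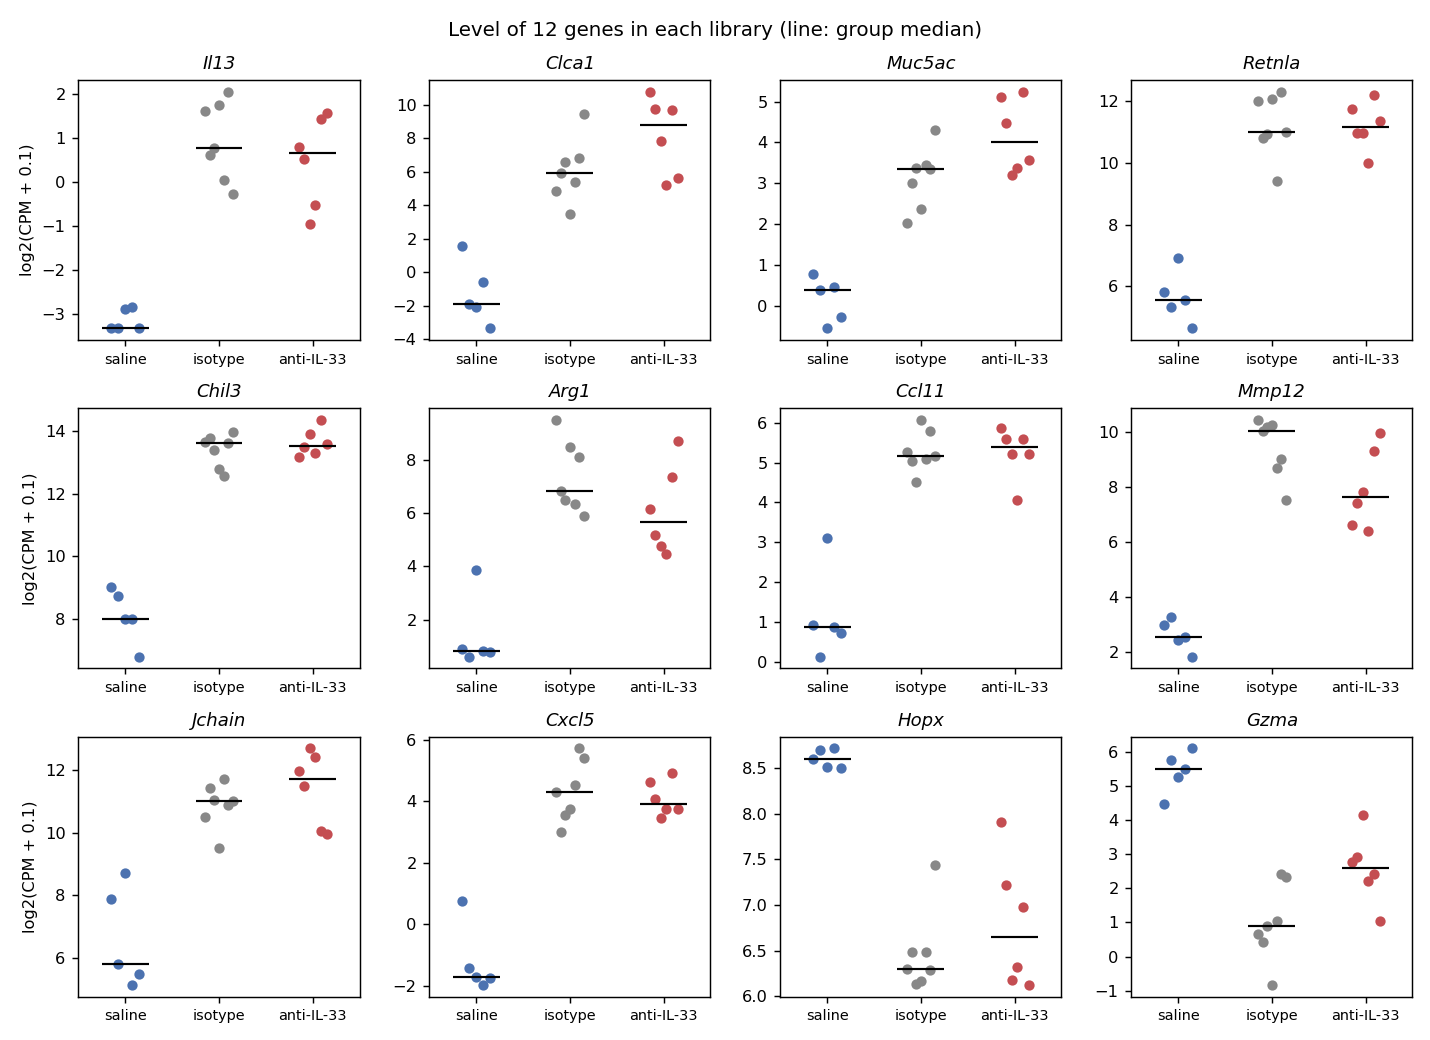
Level of 12 genes in each library as log2(CPM + 0.1) for saline (5), isotype (7) and anti-IL-33 (6), with the group median as a line. In the first 10 panels every anti-IL-33 library lies above every saline library, and in the panels of Hopx and Gzma every one lies below.

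Alternatively activated macrophage genes were higher for 11 of 15 members, with none lower (10 with the GC covariate, 11 without the steep libraries, 11 without saline replicate 3), and for 9 of 15 with isotype. Fewer cells of a type and less RNA per cell cannot be told apart in whole lung, here and below. Retnla (Gene ID 57262, chr16:48842609-48844461), the resistin-like protein of type 2 inflammation, was at 56.8, 40.2, 120.0, 47.4 and 25 CPM in saline. It was at 1019 to 4739 CPM, with a median of 2319, with anti-IL-33, and at 682 to 5069 CPM, with a median of 2024, with isotype. No anti-IL-33 library came near the saline range. The fold change was 5.51 ± 0.56 (adjusted p 2e-09) and the direct difference from isotype -0.11 ± 0.41 (adjusted p 0.866). Chil3, a chitinase-like lectin, rose by 5.43 ± 0.42 to 9381 to 21120 CPM; its near-identical neighbour Chil4 can share reads with it, which makes both values uncertain.

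Arg1, which breaks down arginine, was at 1.78, 1.43, 14.6, 1.67 and 1.62 CPM in saline, where replicate 3 was the outlying library, and at 21.7 to 421 CPM, with a median of 53.9, with anti-IL-33. Replicates 6 and 7 were at 163 and 421 CPM and the other 4 at no more than 71.6; isotype libraries ran from 59.1 to 719.5 CPM. The fold change was 4.86 ± 0.94 (adjusted p 0.000193), against 5.83 with isotype. The lectin receptor Cd209e rose by 5.28 ± 0.81. Ccl17, a ligand of CCR4 on T helper 2 cells, was at 3.93 to 109 CPM under anti-IL-33, against 1.85 to 4.42 CPM in saline and 4.41 to 10 CPM with isotype (3.52 ± 0.57 and 1.39 against saline). Anti-IL-33 replicate 4 was the highest at 109 CPM and replicate 7 the lowest at 3.93 CPM. Its direct difference from isotype was 2.13 ± 0.47 (adjusted p 0.246), with an adjusted p of 0.0417 without replicate 7.

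Promoters of genes of this list are shown because several are known targets of STAT6. The palindromic site of STAT6 has TTC and GAA parted by 4 bases (spacing 4), while other STAT factors favour a gap of 3 bases (spacing 3). Whether these sites bear on the fold changes was not tested. Each pattern reads the same on both strands, and both were searched in the window from 250 bases before to 50 after the start site (RefSeq, GRCm38.p6). Of Ccl11, Retnla, Arg1 and Clca1, which had been set for display, only Retnla had an entry. Of the 10 alternatively activated macrophage genes with an entry, 6 held either pattern, compared with 14.6% of 32851 promoters in the table; these 6 were looked up after their values were seen. Spacing 4 stood in 4 of the 10 (6.95% of all promoters) and spacing 3 in 3 (8.3%), with Ccl17 holding both. Chil3 and its near-identical neighbour Chil4 hold the same spacing 3 match in closely similar sequence, so they are not independent cases in these counts. The match starts 145 bases before the start site in Retnla, 154 and 99 in Ccl17, 79 in Cd209e and 172 in Chil3. Capitals mark the matches, which describe letters and not binding. The windows are chr16:48842359-48842658 (plus strand), chr8:94810203-94810502 (plus), chr8:3854237-3854536 (minus) and chr3:106167515-106167814 (minus).
Retnla: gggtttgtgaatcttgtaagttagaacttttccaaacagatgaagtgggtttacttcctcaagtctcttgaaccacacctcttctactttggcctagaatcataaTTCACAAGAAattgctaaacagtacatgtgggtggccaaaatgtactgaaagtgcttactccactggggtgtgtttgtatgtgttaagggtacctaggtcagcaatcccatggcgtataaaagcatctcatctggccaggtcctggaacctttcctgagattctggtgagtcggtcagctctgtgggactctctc
Ccl17: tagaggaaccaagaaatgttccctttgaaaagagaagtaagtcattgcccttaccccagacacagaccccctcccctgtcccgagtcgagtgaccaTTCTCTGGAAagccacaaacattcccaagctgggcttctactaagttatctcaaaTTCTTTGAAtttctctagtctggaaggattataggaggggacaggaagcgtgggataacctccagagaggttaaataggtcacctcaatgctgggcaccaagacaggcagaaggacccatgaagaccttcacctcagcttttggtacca
Cd209e: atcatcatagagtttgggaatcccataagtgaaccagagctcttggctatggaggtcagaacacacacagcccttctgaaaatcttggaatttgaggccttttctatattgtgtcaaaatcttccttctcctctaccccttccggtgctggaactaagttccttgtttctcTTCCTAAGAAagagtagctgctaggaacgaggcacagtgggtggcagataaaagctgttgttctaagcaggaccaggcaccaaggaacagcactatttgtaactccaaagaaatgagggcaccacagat
Chil3: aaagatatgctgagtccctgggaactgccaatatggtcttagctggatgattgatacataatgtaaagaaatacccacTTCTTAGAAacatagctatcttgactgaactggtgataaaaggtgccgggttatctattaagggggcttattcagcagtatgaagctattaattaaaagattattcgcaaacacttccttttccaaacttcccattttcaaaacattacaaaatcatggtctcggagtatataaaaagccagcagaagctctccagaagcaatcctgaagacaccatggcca

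Genes of lipid-handling and monocyte-derived macrophages were higher for 14 of 14 members, with 14 also with the GC covariate and without the steep libraries, 13 without saline replicate 3 and 10 with GC and length offsets. The median log2 fold change was 3.50 and 3.38 with isotype. Mmp12, the macrophage elastase, was at 7.83, 9.59, 5.36, 5.68 and 3.47 CPM in saline and at 85.1 to 1013 CPM, with a median of 201, with anti-IL-33. Isotype libraries held 184 to 1388 CPM, with a median of 1056. Replicates 6 and 7 were the highest anti-IL-33 libraries (639 and 1013 CPM), and the fold changes were 5.87 ± 0.71 and, with isotype, 7.06. Spp1 (osteopontin) rose by 5.25 ± 0.63 and 6.20, in that order. Gpnmb, a lysosomal glycoprotein, rose by 5.25 ± 0.63 and 6.00, and the protease Ctsk by 4.87 ± 0.53 and 5.70. Direct differences of these 4 genes from isotype lay between -1.19 ± 0.52 (Mmp12) and -0.75 ± 0.47 (Gpnmb), with adjusted p from 0.266 to 0.348. Trem2, a lipid receptor, rose by 4.01 ± 0.41, and the pan-macrophage marker Cd68 by 3.48 ± 0.32. Of 10 alveolar macrophage genes 5 were higher and 1 lower (4 and 2 with the GC covariate and without the steep libraries, 3 and 1 without the steep anti-IL-33 libraries), against 3 and 3 with isotype. Itgax (CD11c), an integrin of these cells, and Atp6v0d2, a proton pump subunit, rose by 3.10 ± 0.33 and 3.33 ± 0.31, with GC-covariate values of 3.31 and 3.74. The members were split, however. The median log2 fold change of the alveolar macrophage list was 0.98, 0.28 with the GC covariate and -0.04 without the steep libraries. Ear1, described below, was lower. Ear2 lost its call with the covariate (0.37, adjusted p 0.579) and without the steep libraries (0.09, adjusted p 0.843).

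Chemokines that call in eosinophils and monocytes stayed high: 12 of 14 CC chemokine genes were higher and 1 lower (11 and 1 with the GC covariate and without the steep libraries, 11 and 0 without saline replicate 3), against 11 and 1 with isotype. Ccl11 (eotaxin-1; Gene ID 20292, chr11:82057832-82062955) was at 1.78, 0.992, 8.57, 1.71 and 1.55 CPM in saline, replicate 3 being the outlying one. It was at 16.7 to 58.6 CPM, with a median of 42.6, with anti-IL-33, and at 22.6 to 67 CPM, with a median of 35.7, with isotype. The lowest anti-IL-33 library, steep replicate 5, was still above every saline library. Its fold change was 3.80 ± 0.51 (adjusted p 5.38e-07), against 3.79 with isotype, and the direct difference was 0.01 ± 0.40. Ccl24 (eotaxin-2) overlapped between anti-IL-33 and saline (1.59 ± 0.98, adjusted p 0.18). Ccl8 rose by 4.55 ± 0.64, Ccl6 by 3.81 ± 0.39 and Ccl3 by 4.00 ± 0.50, with every anti-IL-33 library above all saline libraries. Ccl5, made by cytotoxic cells, was the member that was lower (-1.32 ± 0.52, adjusted p 0.038, and -2.48 with isotype), and it lost the call without saline replicate 2, 3 or 5, or without anti-IL-33 replicate 2, 3 or 7, each left out alone.

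Eosinophil granule and receptor genes gave a mixed picture, with 4 of 8 members higher and 1 lower (3 and 1 with the GC covariate, 3 and 1 of 9 without the steep libraries). The shares over all genes were 25.2% higher and 17.9% lower, 11.5% and 11.0% with the covariate, and 18.7% and 20.2% without the steep libraries. For 1 of the 8 members every anti-IL-33 library lay above every saline library, against 12.3% of all genes. Prg2 (major basic protein) was at 0.272 to 4.46 CPM in saline and 5.09 to 10.9 CPM with anti-IL-33 (2.25 ± 0.49, adjusted p 0.00067), and the eotaxin receptor Ccr3 rose by 1.36 ± 0.41. Ear1, a ribonuclease of the eosinophil family, was lower, at -1.51 ± 0.52 (adjusted p 0.0203), but not with only the 2 groups compared (adjusted p 0.072). Ear6 was at 7.43, 9.29, 86.7 and 20 CPM in replicates 2 to 5 and at 0 in 6 and 7, and Ear genes are near-identical copies that can share reads. Mast cell and basophil genes were higher for 4 of 11 members, with the GC covariate as well. Without the steep libraries 4 of 12 were higher and 1 lower. Over all genes 25.2% were higher, 11.5% with the covariate and 18.7% without the steep libraries. Mcpt1, a mucosal mast cell protease, was at 0.048, 0.0551, 0.0345, 0 and 0.066 CPM in saline and at 0 to 34.4 CPM, with a median of 2.02, with anti-IL-33. Replicate 7 was at 34.4 CPM, replicate 5 at 0, and isotype ran from 0.415 to 2.3 CPM, and the groups overlapped. Its fold change was 7.21 ± 1.15 (adjusted p 1.19e-05), and 4.97 without replicate 7, where it still passed. Cpa3, shared by mast cell types, did not pass (0.07 ± 0.85, adjusted p 0.951).

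Neutrophil chemokines and epithelial defence genes remained above saline as well. In the type 17 and neutrophil list 12 of 13 members were higher (8 with the GC covariate, 8 without the steep libraries, 11 without saline replicate 3), and 9 with isotype. Cxcl5, an epithelial neutrophil chemokine, was at 1.58, 0.275, 0.207, 0.155 and 0.198 CPM in saline and at 10.8 to 30.2 CPM, with a median of 14.9, with anti-IL-33 (5.25 ± 0.63, adjusted p 5.5e-08). Cxcl1 rose by 4.06 ± 0.46. Lcn2, a siderophore-binding antimicrobial protein, rose from 44.7 to 97.7 CPM to 1129 to 2334 CPM, a tight group (4.69 ± 0.28, adjusted p 1.67e-15, and 4.56 with isotype). Il17a had 0 counts in saline and 58 with anti-IL-33, at least 23.2-fold higher, with steep replicate 5 highest at 2.07 CPM. S100a8, an abundant neutrophil protein, was at 686 CPM in replicate 4 and at no more than 88.4 CPM in the other anti-IL-33 libraries, against 16.6 to 95.3 CPM in saline. Its call (1.99 ± 0.61, adjusted p 0.0102) was lost with the GC covariate (adjusted p 0.139) and without the steep libraries (0.26 ± 0.48, adjusted p 0.693), and the same was true of Il1b (adjusted p 0.194 and 0.556).

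Acute phase and complement genes were higher for 10 of 12 members (8 with the GC covariate, 8 without the steep libraries, 8 without saline replicate 3). Saa3, an acute phase serum amyloid, rose from 1.06 to 12.9 CPM to 52.1 to 2835 CPM (7.32 ± 0.86, adjusted p 3.63e-08), with replicate 4 highest. The fibrinogen chains Fga and Fgg rose by 5.21 ± 0.59 and 3.97 ± 0.58, and Orm1 by 4.41 ± 0.66.

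Plasma cell genes were higher for 9 of 10 members (8 with the GC covariate, 9 without the steep libraries, 9 without saline replicate 3) and 8 with isotype. Jchain, which joins polymeric immunoglobulin, was at 235, 55.4, 421, 34.7 and 44 CPM in saline and at 1007 to 6677 CPM, with a median of 3462, with anti-IL-33, against 734 to 3365 CPM, with a median of 2100, with isotype. Replicates 6 and 7 were the lowest treated libraries, still above all saline libraries. The fold change was 4.48 ± 0.64 (adjusted p 1.94e-06). Derl3, of the secretory pathway, Tnfrsf17 (BCMA), a plasma cell survival receptor, and Mzb1 rose by 5.14 ± 0.61, 4.52 ± 0.64 and 3.87 ± 0.47. Of 12 B cell and lymphoid organizer genes 2 were higher and 1 lower, shares below those over all genes (25.2% and 17.9%). The counts were 1 and 0 with the GC covariate, 0 and 1 with GC and length offsets, 2 and 1 without the steep libraries, and 0 and 0 without the steep anti-IL-33 libraries. The higher ones were the chemokines Ccl19 and Ccl21a (1.59 ± 0.35 and 1.30 ± 0.36). Cr2, a complement receptor, was lower, at -1.57 ± 0.52 but not with the GC covariate (adjusted p 0.268), with GC and length offsets or without the steep anti-IL-33 libraries. In the unfolded protein response list, whose genes serve secretory load, 6 of 10 members were higher, all 10 with the GC covariate and 9 without the steep libraries; Manf rose by 1.60 ± 0.17 and Creld2 by 1.97 ± 0.24.

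Among T cell genes 4 of 14 were higher, a share near that over all genes (25.2%), and 1 was lower. The counts were 6 and 1 with the GC covariate, 5 and 2 without the steep libraries, and 1 and 1 without the steep anti-IL-33 libraries. The costimulatory receptor Tnfrsf4 rose by 2.16 ± 0.39 (adjusted p 6.46e-05) and passed in every setting that gave a result for it. Foxp3 and Ctla4 of regulatory T cells were higher by 1.29 ± 0.44 and 1.30 ± 0.36, and neither passed without the steep anti-IL-33 libraries (1.11 ± 0.46 and 1.07 ± 0.38, adjusted p 0.101 and 0.0535). Foxp3 also did not pass with GC and length offsets (0.81, adjusted p 0.208) or without anti-IL-33 replicate 5 (adjusted p 0.0757). Cd8a was at 6.58, 29.7, 22.6, 22.2 and 36.9 CPM in saline and at 1.46 to 6.85 CPM, with a median of 5.39, with anti-IL-33 (-2.36 ± 0.48, adjusted p 0.000319). MHC class II genes were higher for 6 of 7 members, for 3 with the GC covariate, 4 without the steep libraries and 2 without the steep anti-IL-33 libraries. The invariant chain Cd74 rose by 1.73 ± 0.36 and by 0.77 ± 0.18 with the covariate, and H2-Ab1 by 2.01 ± 0.48 and 0.65 ± 0.23; both were highest in the steep replicates 4 and 5. H2-Ab1 did not pass without these 2 libraries (1.22 ± 0.47, adjusted p 0.0725).

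Genes of natural killer cells and cytotoxic granules were below saline. None of 10 members was higher and 9 were lower than in saline (8 with the GC covariate, 9 without the steep libraries, 8 without saline replicate 3), as were 9 with isotype. The median log2 fold change was -2.10, and -2.86 with isotype. Gzma (granzyme A) was at 22.2, 53.9, 38.2, 44.9 and 68.7 CPM in saline and at 1.97 to 17.6 CPM, with a median of 5.96, with anti-IL-33. Isotype libraries were at 0.46 to 5.26 CPM, with a median of 1.75. No anti-IL-33 library reached the lowest saline library, and replicate 4 came nearest at 17.6 CPM. The fold change was -2.66 ± 0.58 (adjusted p 0.00067), -4.21 with isotype, and 1.55 ± 0.53 between the treated groups (adjusted p 0.246). Ncr1, the activating receptor NKp46, was at 2.35 to 8.45 CPM in saline and 0.252 to 1.56 CPM with anti-IL-33 (-2.42 ± 0.46, adjusted p 0.000154). Perforin (Prf1) was lower, at -2.13 ± 0.36 and Gzmb by -2.37 ± 0.45.

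Interferon response genes were lower for 8 of 15 members and higher for 1 (7 and 0 with the GC covariate, 9 and 0 without the steep libraries), and for 9 and 1 with isotype. Gbp2 and Gbp3, interferon-induced GTPases, were lower, at -2.23 ± 0.45 and -2.57 ± 0.52, with every anti-IL-33 library below every saline library. Oas1a was the member that was higher (0.85 ± 0.33), without a call under the covariate (adjusted p 0.279).

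Alveolar type 1 cell genes, which mark the thin gas-exchange epithelium, were lower for 6 of 9 members and for 8 of 9 with the GC covariate, against 6 without the steep libraries and 6 with isotype. Hopx was at 388, 415, 366, 420.3 and 363 CPM in saline and at 69.7 to 239.8 CPM, with a median of 103, with anti-IL-33. Replicates 2 and 3 held the highest treated values, 239.8 and 149 CPM, which were below every saline library. The fold change was -1.67 ± 0.28 (adjusted p 2.8e-05), -1.38 ± 0.27 with the covariate and -2.07 with isotype. Akap5, Cav1 and Rtkn2 were lower, at -2.46 ± 0.57, -2.01 ± 0.38 and -1.69 ± 0.36. Ager and Aqp5, whose transcripts have GC contents of 59.4% and 64.0%, had fold changes of 0.42 and 0.68 without a call, and were lower with the GC covariate (-0.87 ± 0.22 and -1.08 ± 0.29, adjusted p 0.00386 and 0.00615). Both were also lower with GC and length offsets, but neither was called lower without the steep libraries.

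Of 12 endothelial genes 4 were lower, 7 with the covariate and 6 without the steep libraries. Over all genes 17.9%, 11.0% and 20.2% were lower, in that order. Of 11 fibroblast genes 7 were lower, 9 with the covariate, 10 without the steep libraries and 5 without the steep anti-IL-33 libraries alone. Tek, the angiopoietin receptor, was at 334, 355, 260.1, 356 and 294 CPM in saline and at 9.18 to 128 CPM, with a median of 58.5, with anti-IL-33, lowest in the steep replicates 5 and 4. It was lower, at -2.28 ± 0.52 (adjusted p 0.00114) and at -1.40 ± 0.28 with the covariate. Kdr (VEGF receptor 2) was lower, at -1.84 ± 0.53. Plvap and Tie1, with GC contents of 60.6% and 57.6%, did not pass and were lower with the covariate (-0.88 ± 0.21 and -0.97 ± 0.21). Neither was called lower without the steep libraries, and with GC and length offsets only Plvap was. The fibroblast genes Limch1 and Pdgfra were lower, at -1.77 ± 0.36 and -1.74 ± 0.45, and passed in every setting that gave a result for them. Tcf21 was lower, at -1.42 ± 0.37, with -2.22 for isotype, but not without the steep anti-IL-33 libraries (-1.16, adjusted p 0.0538). Inmt was lower, at -1.40 ± 0.58 (adjusted p 0.0481). Its call was lost without the steep anti-IL-33 libraries, with DESeq2's size factors, with a replicate block, and without any 1 of the 5 saline libraries or of anti-IL-33 replicates 3 to 7 (adjusted p 0.0501 to 0.105).

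Airway secretory genes of club cells were lower for 4 and higher for 2 of 9 members, with the same counts under the GC covariate. The counts were 6 and 2 without the steep libraries and 2 and 2 without the steep anti-IL-33 libraries, against 6 and 1 with isotype. Over all genes 17.9% were lower and 25.2% higher without a GC term. Cyp2f2, a club cell cytochrome, was at 1955, 1738, 1520, 1811 and 1291 CPM in saline and at 143 to 1009 CPM, with a median of 645, with anti-IL-33. With isotype it was at 84 to 374 CPM, with a median of 184. Its fold change was -1.51 ± 0.45 (adjusted p 0.00838) against -3.07 with isotype. The treated groups overlapped only through anti-IL-33 replicate 7 (143 CPM), and the direct difference was 1.56 ± 0.41 (adjusted p 0.246 in edgeR, 0.0291 in DESeq2 and 0.0417 in edgeR without replicate 7). Scgb1a1 was at 8897 to 16960 CPM in saline, 1440 to 19200 CPM with anti-IL-33 and 1589 to 5465 CPM with isotype. It did not pass against saline (-0.82 ± 0.44, adjusted p 0.124), and its direct difference from isotype was 1.46 ± 0.41 (adjusted p 0.246, 0.0377 in DESeq2). The 2 members that were higher were Scgb3a1, a secretoglobin of larger airways (3.20 ± 0.67), and Ltf, lactoferrin (3.14 ± 0.50). Foxj1, the regulator of ciliated cells, was higher by 1.97 ± 0.69 (adjusted p 0.0223), which became -0.04 ± 0.44 with the GC covariate. Alveolar type 2 genes were higher for 6 of 10 members, for 3 with the covariate, 8 without the steep libraries and 4 without the steep anti-IL-33 libraries; surfactant protein D (Sftpd) rose by 2.29 ± 0.27 and by 1.79 ± 0.20 with it.

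Matrix and remodelling genes were higher for 11 and lower for 2 of 20 members (8 and 1 with the GC covariate, 13 and 2 without the steep libraries, 11 and 0 without the steep anti-IL-33 libraries), against 15 and 2 with isotype. Timp1, an inhibitor of metalloproteinases, was at 7.87, 3.52, 4.73, 2.88 and 4.62 CPM in saline and at 20.7 to 333 CPM, with a median of 66.7, with anti-IL-33, replicate 4 being highest. It rose by 4.46 ± 0.64 (adjusted p 1.69e-06), and by 4.47 with isotype. Tnc, tenascin C, rose by 2.12 ± 0.47 and by 2.98 with isotype, with a direct difference of -0.86 ± 0.41 (adjusted p 0.271). Col1a1, the main fibrillar collagen, was at 127, 178, 242, 202 and 192 CPM in saline and at 251 to 1624 CPM, with a median of 566, with anti-IL-33. Every treated library was higher, with steep replicate 5 highest, and the fold change of 1.93 ± 0.47 (adjusted p 0.00223) became 0.63 ± 0.27 with the covariate (adjusted p 0.0942); without the steep libraries it was 1.37 ± 0.39 (adjusted p 0.00793). Col3a1 and Col15a1 rose by 1.06 ± 0.30 and 2.35 ± 0.48 and passed with the covariate (0.96 and 1.58). Eln, elastin, went from 2.56 ± 0.62 to 0.53 ± 0.35 (adjusted p 0.298). Postn, periostin, and Fap were the members that were lower (-0.90 ± 0.31 and -1.52 ± 0.46), and neither call held in all settings. Postn was at -0.41 ± 0.25 with the covariate (adjusted p 0.256), -0.16 ± 0.20 with GC and length offsets and -0.62 ± 0.33 without the steep anti-IL-33 libraries, and did not pass without anti-IL-33 replicate 4 or 5 alone (adjusted p 0.056 and 0.0673). Fap did not pass without saline replicate 3 (-1.02, adjusted p 0.0699) or without the steep anti-IL-33 libraries (adjusted p 0.0552).

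**Figure D3:**
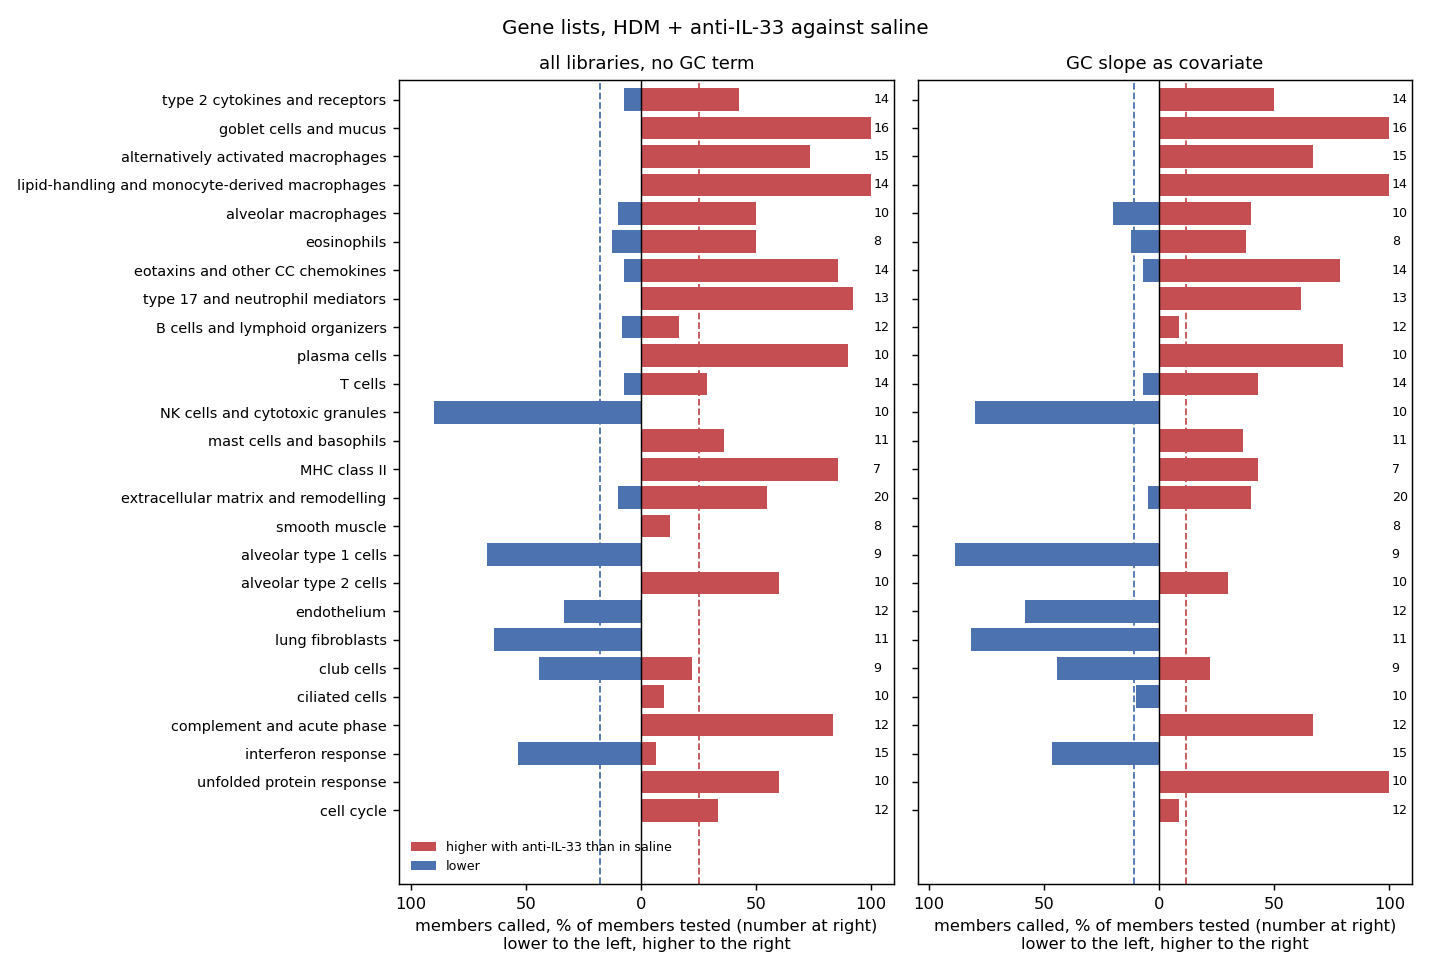
Share of the tested members of each gene list (percent, number tested at right) that were higher (to the right) or lower (to the left) with anti-IL-33 than in saline, without a GC term and with the GC slope as covariate. Dashed lines mark the share over all 15979 genes, 25.2% higher and 17.9% lower in the left panel, 11.5% and 11.0% in the right panel; goblet cell and lipid-handling macrophage genes reach 100% in both.

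By size alone, without regard to list, the leading genes above saline were Clca1, Awat1, Npy, Lemd1, Msx3, Cd200r2, Bmp8a, Saa3, Dlk1 and Clca3b. Awat1, an acyltransferase that makes wax esters, was at 0.384, 0, 0, 0.0389 and 0.066 CPM in saline and at 39 to 106 CPM, with a median of 55.9, with anti-IL-33, a narrow range (9.37 ± 0.66, adjusted p 2.3e-13, and 8.87 with isotype). Npy, neuropeptide Y, was at 0, 0, 0.0691, 0.0389 and 0.033 CPM in saline and at 2.75 to 79.9 CPM, with a median of 13.3, with anti-IL-33 (9.31 ± 0.96). Lemd1 and Msx3 had 0 counts in saline and were at least 74.8-fold and 62.0-fold higher. Dlk1, a membrane ligand related to the Notch ligands, was at 73.6 CPM in replicate 7 and at 6.56 CPM or less in the others. With the GC covariate the rule added Ptgdr, a prostaglandin D2 receptor (225 counts against 3, ratio 90.0, interval 30.4 to 439), and Fgf23 (7.02 ± 1.22), which was at 0.518 to 10.5 CPM with anti-IL-33 and 3.76 to 25.6 CPM with isotype.

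The leading genes below saline were Rptn, Tgm3, Psca, Elovl4, Klhl41, Cd300e, Gbp10, Cst8, H60c and Prom2. In Rptn, Tgm3, Elovl4, Klhl41 and Prom2, saline replicate 3 was at 732, 384, 39.7, 35.2 and 36.9 CPM, far above the other saline libraries. Without it none of the 5 passed, with fold changes of -2.94, -2.52, -1.66, -1.09 and -1.67 in that order (adjusted p 0.137, 0.115, 0.132, 0.277 and 0.0991). Psca, prostate stem cell antigen, was at 12.9, 10.7, 23.2, 12.3 and 9.64 CPM in saline and at 0.0489 to 0.521 CPM, with a median of 0.0858, with anti-IL-33 (-6.62 ± 1.51, adjusted p 0.00113). Cst8, a cystatin, was at 5.09, 4.9, 3.94, 6.77 and 3.8 CPM and at 0 to 0.625 CPM, with a median of 0.342 (-3.89 ± 0.69). Cd300e, a receptor of monocytes, was at 5.87 to 26.7 CPM in saline and at 0.074 to 1.61 CPM with anti-IL-33 (-4.04 ± 0.61), and -4.17 with isotype. Gbp10 and H60c were lower, at -3.90 ± 0.87 and -3.87 ± 0.71. The added genes of the GC covariate fit, Gsta2, Pck1 and Cidec, were lower, at -3.70 ± 0.77, -3.64 ± 0.78 and -4.06 ± 0.77 there, and all 3 were highest in saline replicate 3; without it Cidec did not pass (-1.31, adjusted p 0.204).

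**Figure D4:**
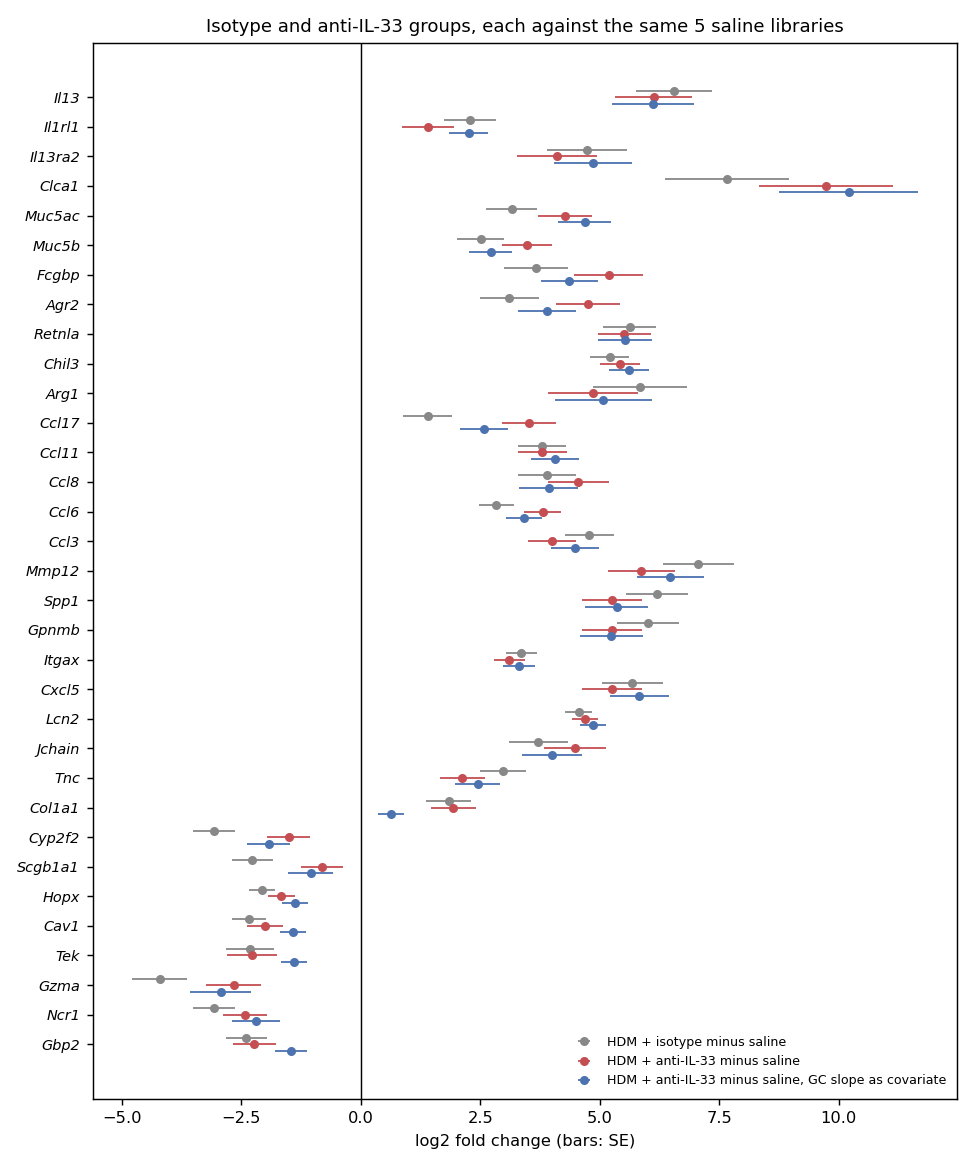
Log2 fold change (points) with its SE (bars) of genes named in the text against the same 5 saline libraries, for isotype, for anti-IL-33, and for anti-IL-33 with the GC slope as covariate. Muc5ac stands at 4.27 with anti-IL-33 and 3.16 with isotype, Mmp12 at 5.87 and 7.06, and Gzma at -2.66 and -4.21.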

How the data were processed

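RNA of whole lung was sequenced from 43 libraries, of which 6 anti-IL-33, 5 saline and 7 isotype libraries are compared here. Per the labels' protocols, 500 ng of RNA went into a KAPA stranded mRNA library with 12 PCR cycles and single reads of 33 cycles. The authors deposited expected counts per gene, of which 76.8% of the values above 0 were whole; the genome was mm10 per the submitters' processing notes, and the sources used here name no aligner, counter or annotation. Expected counts were rounded to whole numbers, and 24475 genes were read, of which 15979 passed edgeR's expression filter. All 43 libraries entered 1 model with a mean per group, TMM factors and edgeR's robust quasi-likelihood test (edgeR 4.0.16, R 4.3.3; Benjamini-Hochberg adjusted p under 0.05), after testing on simulated data. CPM values were computed with library sizes adjusted by the TMM factors, so they differ from shares of a library's total. Groups and replicate numbers come from the labels. No 2 replicates were alike within sampling noise.

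Alternatives were DESeq2 1.42.0, limma 3.58.1 (voom with sample weights), other scaling and filters, the GC slope as covariate, GC and length offsets, each library left out, and a replicate block. A GC slope limit of 0.75, set first, left no library out, so 0.4 was chosen after the slopes were seen. Same-numbered anti-IL-33 and saline libraries did not deviate together (4 pairs, correlations from -0.326 to 0.0537). Members and lists were chosen with earlier results of these data known. Genes named by size are up to 10 per direction with the largest fold change, an adjusted p under 0.05, a mean of at least 1 CPM in 1 group and no overlap between groups, without immunoglobulin and T cell receptor segments and predicted genes, in the model with and without the GC covariate; a set of genes and up to 4 called members of each list, plus examples, were added. Gene positions and promoters are from RefSeq (GRCm38.p6). Ratios over few counts have 95% intervals that cover counting error only. Results for some members of the lists are not reported here.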

Additional observations from a re-analysis of the deposited data

Results flagged for a closer look

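A library was singled out where its gap to the nearest other library of its group was large for the group's range; chance does this in about 1 of 20 groups, and 36 of 302 groups tested met it. In saline, 20 of these were replicate 3. They include genes of squamous epithelium, skin and fat: Krt13 at 5300 CPM, Rptn at 732 CPM, Tgm3 at 384 CPM, Prom2 at 36.9 CPM, Elovl4 at 39.7 CPM, Cfd at 757 CPM and Cidec at 114 CPM. The muscle genes Acta1 and Klhl41 stood at 657 and 35.2 CPM there. Some immune and mast cell genes were also high in this library, with Ccl11 at 8.57 CPM, Arg1 at 14.6 CPM and Chil4 at 25.8 CPM. H2-Ab1 was at 416 CPM, Cpa3 at 9.15 CPM and Tpsb2 at 9.6 CPM. Tpsab1 was singled out in this library as well, but at 0.0691 CPM, a value that rests on very few counts. The summed level of the whole mast cell and basophil list was nevertheless lowest there, at 191 CPM of a saline range up to 236 CPM. Gsta2 was at 11.8 CPM, Col15a1 at 45.2 CPM and the mitotic kinase Plk1 at 5.25 CPM, while Akap5 was low at 229 CPM. Saline replicate 1 was high for Cxcl5 (1.58 CPM) and Ear6 (0.288 CPM) and low for Ccl5 (13.3 CPM) and Inmt (642 CPM).

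With anti-IL-33, steep replicate 4 was high for the neutrophil and inflammatory genes S100a8 (686 CPM), Il1b (120 CPM) and Il6 (8.54 CPM), and had Pck1 at 0 CPM. Steep replicate 5 was low for Ccl11 (16.7 CPM) and Il13ra2 (0.222 CPM) and high for Plk1 (17.4 CPM). Replicate 7 was high for the mast cell tryptase Tpsb2 (58.2 CPM), low for Inmt (38.7 CPM) and Tgm3 (0.123 CPM), and had Cst8 at 0 CPM. Cd200r2 was at 3.33 CPM in replicate 2.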

How the results depend on the processing

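Counts of genes above saline with anti-IL-33 were 1840 with the GC slope as covariate and 1345 without the steep anti-IL-33 libraries, against 4026. Leaving out 1 library gave 2522 (without anti-IL-33 replicate 4) to 4313. Counts below saline were 1759, 969 and, with voom, 4707, against 2853, and 1811 (without anti-IL-33 replicate 5) to 3269 without 1 library. For isotype, voom gave 5384 higher and 5132 lower, only the 2 groups compared 3999 and 4079, and no steep libraries 4028 and 4332. The fit without steep libraries left out no isotype or saline library. Between anti-IL-33 and isotype DESeq2 gave 8 higher, voom 478 higher and 534 lower, no steep anti-IL-33 libraries 1 higher, and leaving out 1 library 0 to 86 higher and 0 to 51 lower, the highest without anti-IL-33 replicate 7. The cause was not tested. With a replicate block 3219 genes were higher and 2621 lower with anti-IL-33 than in saline; the numbers are not shown to pair libraries, and no saline library correlated best with its own number.

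Of 138 named genes called against saline, 99 kept direction and call in every setting that gave a result for the gene, and 39 did not. A setting without a result for a gene, for example after its filter removed it, was not counted. With the GC covariate the sign turned for Il33 (0.99), Ager (-0.87), Aqp5 (-1.08), Plvap (-0.88), Tie1 (-0.97), Foxj1 (-0.035) and Tppp3 (-1.25). With GC and length offsets it turned for Ager (-0.92), Aqp5 (-1.13), Plvap (-0.72), Tppp3 (-1.15) and Sftpc (-0.16). Acta1 turned with voom (0.99) and ran from -8.15 to 2.05 with 1 library left out, the highest without saline replicate 3. The planned limit of 0.75 on GC slopes was not run.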

Other observations

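Smooth muscle genes were higher with anti-IL-33 for 1 of 8 members, for 0 with the GC covariate and for 5 without saline replicate 3. Cell cycle genes were higher for 4 of 12 members and for 1 with the covariate. Of 13 mitochondrially encoded genes 3 were higher, and 0 with the covariate or without the steep libraries. For these 3 lists, the share of all genes that were higher was 25.2%. It was 11.5% with the covariate, 18.7% without the steep libraries and 25.2% without saline replicate 3. Erythroid genes summed to 2150 to 5790 CPM in saline, 566 to 7810 CPM with anti-IL-33 and 573 to 2080 CPM with isotype, and 0 of 7 passed (2 lower with the covariate). Thymus genes stayed at or below 24.0 CPM in sum in these groups. Adipose genes were lower for 7 of 8 members and squamous genes for 7 of 8; without saline replicate 3 none of either list was lower, and 1 and 2 were higher.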
